A study of Mus musculus with 5 samples.

Results

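Cx3cr1 and 5 other receptor genes, Ccr1, Ccr2, Ccrl2, Cxcr4 and Cmklr1, were followed in RNA sequencing of mouse microglia, the resident macrophages of the brain. These 6 members were taken by gene symbol from a table of 21983 genes, and all 6 passed the filter on low counts that left 12543 genes for testing. The study asked which processes change in microglia that lose Ythdf2, a protein that binds N6-methyladenosine in mRNA and speeds the decay of the bound transcripts. Its libraries came from primary microglia of brain: 2 libraries of genotype Cx3cr1CreERT2 Ythdf2fl/fl, labelled knockout 1 and 2, and 3 libraries of genotype Ythdf2fl/fl, controls 1 to 3. Floxed Ythdf2 alleles, which Cre recombinase can delete, were thus shared by all 5 libraries, and no control carried the recombinase. The sources used here do not give age, sex, tamoxifen dosing or the number of animals behind a library. The p-values measure the spread between these libraries, which may be technical. CreERT2 is a recombinase that tamoxifen activates, and in widely used mouse lines of this name it is inserted into Cx3cr1 itself. The labels do not name the line, so for Cx3cr1 a change of its own allele, the presence of Cre and loss of Ythdf2 cannot be told apart.

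Chemokine receptors are membrane-spanning proteins that couple to inhibitory G proteins and steer cells along gradients of chemokines. Cx3cr1 binds fractalkine (Cx3cl1), which neurons display and shed, and is a hallmark of microglia. Ccr1 and Ccr2 bind inflammatory CC chemokines, and Ccr2 is best known for bringing monocytes out of the bone marrow. Cxcr4 binds Cxcl12, which retains and positions cells. Cmklr1 signals in response to chemerin, the product of Rarres2, whereas Ccrl2 binds chemerin without known signalling and presents it to neighbouring cells.

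Cx3cr1 was lower and Ccr1 higher in both labelled-knockout libraries than in every control, so these genes carry the contrast described here. The 300 bases around their start sites, 250 before and 50 after, are shown from RefSeq (GRCm38.p6), both genes being on the minus strand, with matches to GAGGAA, a core bound by the macrophage factor PU.1 and other ETS proteins, in capitals. Cx3cr1 starts within chr9:120068247-120068546, which held no match, and Ccr1 within chr9:123968643-123968942, which held 1 match.
Cx3cr1: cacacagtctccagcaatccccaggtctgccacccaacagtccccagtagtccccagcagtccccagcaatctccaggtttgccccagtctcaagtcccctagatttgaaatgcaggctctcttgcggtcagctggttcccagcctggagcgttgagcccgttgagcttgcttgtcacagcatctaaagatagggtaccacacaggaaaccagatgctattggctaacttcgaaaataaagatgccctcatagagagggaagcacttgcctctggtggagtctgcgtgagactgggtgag
Ccr1: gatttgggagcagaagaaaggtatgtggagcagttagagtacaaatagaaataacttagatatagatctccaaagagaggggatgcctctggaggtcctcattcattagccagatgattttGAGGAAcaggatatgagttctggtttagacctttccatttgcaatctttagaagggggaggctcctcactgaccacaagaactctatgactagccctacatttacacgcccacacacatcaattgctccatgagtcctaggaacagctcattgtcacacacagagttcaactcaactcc
The motif was searched on both strands, and 28.3% of 32851 such promoters held it. All 6 members matched the promoter table, and Cmklr1 also held 1 match. The AP-1 element TGANTCA was not found in the promoter of any member on either strand, and 7.81% of all promoters held it. Nor was the interferon response repeat, GAAA and GAAA with any 2 bases between them, which 3.44% held. A match is a description of sequence only.

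Ythdf2 recognises methylated adenosine, which is placed most often within a GGAC context. The mRNA sequence GGACT, shown in capitals below with 10 bases on either side, occurred once in the coding sequence of Cx3cr1, counted in the longest coding transcript of GENCODE M21, and 3 times in that of Ccr1.
Cx3cr1 coding site: ttgcccttctGGACTcactacctca
Ccr1 coding site 1: ttgactatggGGACTccactccatg
Ccr1 coding site 2: ctttggggctGGACTcctgcccccc
Ccr1 coding site 3: aaaccttcttGGACTaattttgcct
Over the whole transcript the 6 members held 0.554 (Cxcr4) to 1.73 (Cmklr1) GGACT per kilobase, against a median of 1.05 over the 12494 tested genes with a coding transcript, of which 93.1% held at least 1. Cx3cr1 and Ccr1, which differed between groups in opposite directions, had 5 and 3 over the whole transcript, or 1.11 and 1.06 per kilobase. Whether these adenosines are methylated was not measured.

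Gene counts summed to 13947500 to 19577217 per library, mitochondrially encoded genes took 1.16% to 2.2% of them, and the 6 members 0.0507% to 0.124%. No pair of libraries agreed within sampling noise: per degree of freedom, chi-square ran between 53.4 and 273. The highest value was that of the 2 labelled-knockout libraries with each other, and the lowest that of controls 1 and 2. Pairs of a labelled-knockout library and a control gave 97.1 to 264. Chi-square was taken on counts not scaled for depth and grows with depth. The labelled-knockout library 2 had the highest total, so these values do not rank the pairs by likeness. Ythdf2 itself stood at 103.5 and 127 CPM in the labelled-knockout libraries, against 57.0, 69.2 and 68.8 CPM in controls, where CPM is a gene's count scaled to a common library size after TMM normalization. The targeted gene thus goes against its label, although counts summed over a gene include undeleted exons and cannot show the deletion. The libraries are therefore called labelled knockout, and all directions given rest on that labelling. Csf1r, the growth factor receptor that microglia depend on, was at 2416 and 3154 CPM in the labelled-knockout libraries and 2372 to 4220 CPM in controls, whereas P2ry12 and Tmem119, markers of resting microglia, were at 5.35 to 34.1 CPM over all 5 libraries.

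Cx3cr1 was 3.61-fold lower by group means in the labelled-knockout libraries. Its values were 337 and 97.7 CPM there, against 682, 992 and 681 CPM in controls 1, 2 and 3. The groups did not overlap, and the labelled-knockout libraries differed from each other 3.45-fold, more than the 1.46-fold range of the controls. The means were 217 ± 169 CPM (SD, n = 2) and 785 ± 179.6 CPM (SD, n = 3). The log2 fold change was -1.85 (SE 0.571, 95% interval -3.26 to -0.44), with adjusted p = 0.574 in the edgeR quasi-likelihood test over all genes tested and 0.0703 in DESeq2. Leaving out library 1 of the labelled knockouts gave -3.04, and leaving out library 2 gave -1.22. In GRCm38 the gene (ENSMUSG00000052336.7) spans 119901616 to 120069879 of chromosome 9, on the minus strand, and shares exonic sequence with Gm33858 on the opposite strand. The sources used here do not say if counting was strand-aware, so reads of both cannot be told apart.

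Ccr1 went the other way and was 3.64-fold higher by group means. It stood at 46.3 and 149 CPM in the labelled-knockout libraries, against 27.4, 19.8 and 33.4 CPM in controls. Neither group overlapped the other; the first labelled knockout stood just over control 3 and the second far over it. The means were 97.9 ± 72.9 CPM (SD, n = 2) and 26.9 ± 6.79 CPM (SD, n = 3). The log2 fold change was 1.87 (SE 0.508, 95% interval 0.61 to 3.12), with adjusted p = 0.503 in edgeR and 0.0463 in DESeq2. Without the labelled-knockout library 2 the log2 fold change was 0.79, and DESeq2 no longer called the gene (adjusted p = 0.381). DESeq2 also lost the call without control 1 (adjusted p = 0.299) and without control 2 (adjusted p = 0.342), and kept it without the labelled-knockout library 1 (1.77e-05) and without control 3 (0.0244). Cx3cr1 passed the DESeq2 threshold with the labelled-knockout library 1 left out (adjusted p = 1.04e-09). Each fit without a labelled-knockout library sets 1 library against 3 controls, so its p takes the spread from the controls and assumes that the lone library varies like them; the difference between the labelled-knockout libraries does not enter it. Ccr1 (ENSMUSG00000025804.5) spans 123962124 to 123968692 of chromosome 9, also on the minus strand, with no exon of another annotated gene over its own.

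**Figure D1:**
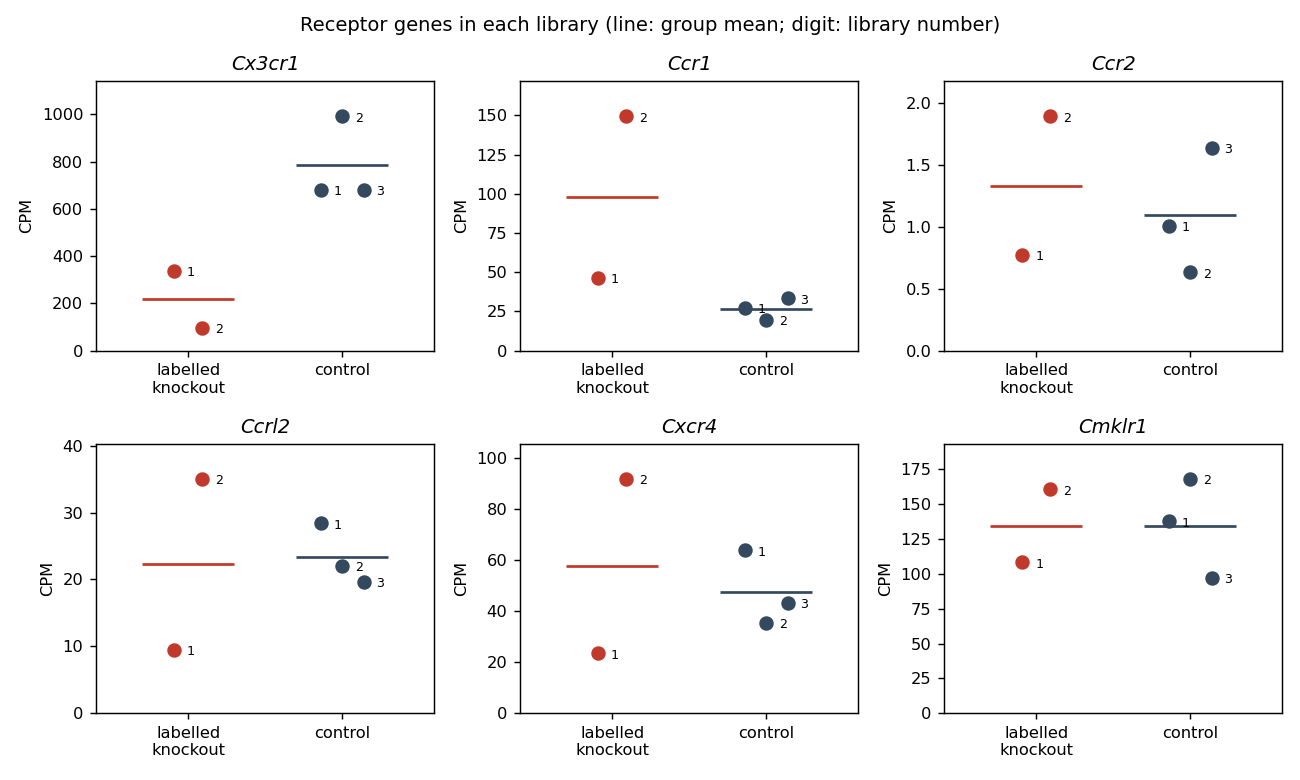
CPM (vertical axis, from 0, its own scale in each panel) of the 6 receptor genes in the labelled-knockout libraries (red, left) and the controls (dark, right); each point is a library with its number and the line is the group mean. Cx3cr1 shows both red points under all 3 controls, Ccr1 both above, and the other 4 genes overlap between groups.

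Ccr2, at 124101950 to 124113557 of chromosome 9 on the plus strand, had few reads in every library. It had 13 and 35 counts in the labelled-knockout libraries, against 16, 10 and 22 counts in controls. These counts correspond to 0.773 and 1.89 CPM versus 1.006, 0.634 and 1.64 CPM, and the exact 95% counting intervals of the labelled-knockout library 2 (1.32 to 2.63 CPM) and of control 3 (1.02 to 2.48 CPM) overlapped; such intervals cover counting error only. The log2 fold change of 0.32 had an interval of -1.35 to 1.98 (edgeR adjusted p = 0.952). Ly6c2, which with Ccr2 defines classical monocytes, had no count in 4 libraries and 0.108 CPM in the labelled-knockout library 2, and the monocyte genes Chil3 and Treml4 had no count in any library. Of the 12 monocyte markers listed, 6 could be tested and 3 (Ace, Spn and Hp) were higher with no overlap between groups. Among all genes tested, 9.85% were higher without overlap. Ace was at 38.5 and 13.1 CPM versus 0.943 to 2.45 CPM in controls, with adjusted p = 1.53e-06 in DESeq2. Spn was at 15.2 and 8.32 CPM versus 1.51 to 2.79 CPM, with adjusted p = 0.00244 in DESeq2. DESeq2 did not call Hp (adjusted p = 0.316), and edgeR called 0 of the 6. The summed level of the 12 markers was 1668 to 2533 CPM in the labelled-knockout libraries against 595 to 1978 CPM in controls. Most of it came from Fn1, and the part of these markers in the values of the members was not tested.

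Cxcr4 differed mainly between libraries of the same label. It was at 23.5 and 91.7 CPM in the labelled-knockout libraries, so below and above all the controls, which were at 63.7, 35.4 and 43.3 CPM. Ccrl2 had the same shape, at 9.46 and 35.02 CPM versus 28.4, 22.1 and 19.7 CPM. Their log2 fold changes were 0.28 (95% interval -1.15 to 1.70) and -0.07 (-1.42 to 1.28), with edgeR adjusted p of 0.952 and 0.986. Leaving out a labelled-knockout library turned these signs: Cxcr4 was at -1.02 without the second, and Ccrl2 at 0.55 without the first. Cxcr4 lies on chromosome 1 at 128588199 to 128592293 and Ccrl2 on chromosome 9 at 111054486 to 111057519, both on the minus strand.

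Cmklr1 had the narrowest interval of the 6. It was at 108 and 160.2 CPM in the labelled-knockout libraries and 137.5, 168 and 96.9 CPM in controls, with means of 134 ± 36.8 (SD, n = 2) and 134 ± 35.6 (SD, n = 3). The libraries of both kinds interleaved. The log2 fold change of 0.00 (SE 0.313) had a 95% interval of -0.77 to 0.77, so a change of up to about that size in either direction is not excluded by it (edgeR adjusted p = 0.999). Cmklr1 lies on chromosome 5 at 113612354 to 113650426 on the minus strand.

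Counted over the 6 members, edgeR called 0 at an adjusted p under 0.05, where it called 0% of all 12543 genes, and limma-voom also called 0. At an unadjusted p under 0.05 edgeR found 1 member higher, against 3.99% of all genes, and 1 lower, against 2.69%, so 2 in either direction, against 6.68%. DESeq2 called 1 member, Ccr1, which was higher, against 1.95% of the genes it adjusted, 1.21% higher and 0.734% lower. The groups did not overlap for 1 member that was higher and 1 that was lower, where 9.85% and 10.4% of all genes did so, 20.3% in either direction. The median log2 fold change of the 6 was 0.14, beside 0.01 for all genes tested.

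Per kilobase of exon, the order of the receptors differed between libraries. RPKM here is CPM divided by the length of all annotated exons of the gene. In all 3 controls Cx3cr1 came first at 174 ± 39.9 RPKM (SD, n = 3), followed by Cmklr1 at 39.3 ± 10.4 and Cxcr4 at 26.3 ± 8.08, and these places held in 3 of 3 controls. Ccr1 and Ccrl2 followed at 9.48 ± 2.40 and 9.002 ± 1.73 RPKM, which did not differ beyond their spread, and Ccr2 came last at 0.161 ± 0.0749. The labelled-knockout library 1 kept Cx3cr1 first, at 74.8 RPKM, followed by Cmklr1 at 31.7 and Ccr1 at 16.4. In the labelled-knockout library 2, Ccr1 at 52.7, Cxcr4 at 50.7 and Cmklr1 at 47.0 RPKM all stood above Cx3cr1 at 21.7. Group means of the labelled-knockout libraries, from Cx3cr1 at 48.2 ± 37.6 down to Cxcr4 at 31.9 ± 26.7 RPKM (SD, n = 2), did not differ beyond their spread.

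**Figure D2:**
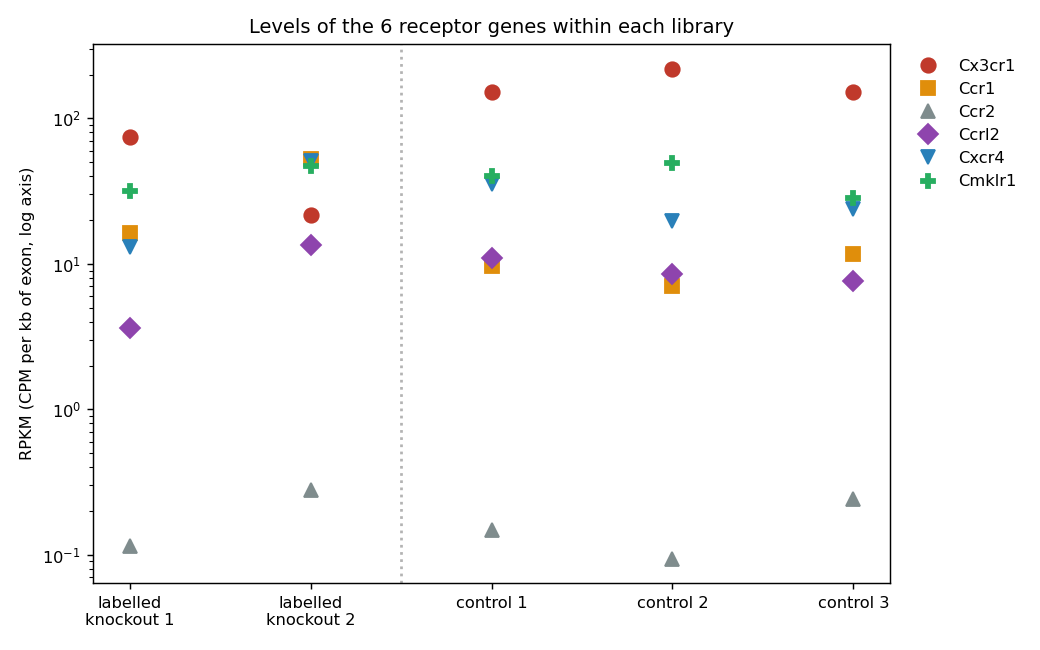
RPKM (CPM per kilobase of exon, log axis) of the 6 receptor genes in each of the 5 libraries, with the labelled-knockout libraries left of the dotted line. Cx3cr1 is the top point in 4 libraries and the fourth in the labelled-knockout library 2, and Ccr2 is the bottom point in all 5.

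Ratios within a library do not depend on how libraries are scaled to each other. For every 100 RPKM of Cx3cr1 there were 21.9 and 243 RPKM of Ccr1 in the labelled-knockout libraries, against 6.39, 3.18 and 7.80 in controls. Both ratios lay above those of all controls, and that of library 2 stood far above that of library 1. Ccr2 stood at 1.53 and 12.9 RPKM for each 1000 RPKM of Cx3cr1, against 0.983, 0.426 and 1.601. Here the labelled-knockout library 1 fell within the range of the controls, and in the second both a higher Ccr2 and a lower Cx3cr1 enter the ratio. With 2 libraries against 3 the smallest two-sided p of an exact permutation test is 0.2, and no test was made.

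In bulk RNA, fewer microglia and less Cx3cr1 mRNA per cell cannot be told apart. The 12 microglia markers listed, Cx3cr1 not among them, summed to 3091 and 3997 CPM in the labelled-knockout libraries and 4946 to 5981 CPM in controls, and of 11 tested 3 were higher and 3 lower without overlap. Set against that sum, Cx3cr1 was at 10.9 and 2.44 per 100 CPM of markers, against 13.004, 16.6 and 13.8 in controls, so both labelled-knockout libraries stayed below every control. P2ry12 went the opposite way to Cx3cr1, at 25.2 and 32.5 CPM versus 9.24, 8.81 and 23.0 CPM. Choroid plexus markers were higher without overlap in 7 of 8, with a summed level of 570 and 346 CPM versus 60.3 to 213 CPM. Over all genes tested, 9.85% were higher and 10.4% lower without overlap. DESeq2 called the same 7 higher, against 1.21% of the genes it adjusted, and edgeR called 0. Enpp2, the marker that overlapped, made up most of the sum in controls. It was at 401 and 121 CPM versus 158, 206 and 33.2 CPM. Ttr was at 101 and 203 CPM versus 22.1, 5.89 and 24.8 CPM. Oligodendrocyte markers varied more, at 12616 and 4642 CPM versus 10717, 9693 and 1295 CPM, and overlapped between groups. Cell cycle markers summed to 1573 and 395 CPM versus 209 to 511 CPM, so the labelled-knockout library 2 lay within the range of the controls. The largest part in the labelled-knockout library 1 was Mki67, at 790 and 126 CPM versus 33.0, 51.4 and 115 CPM. All 10 cell cycle markers were tested and had a positive log2 fold change. Of them 4 were higher and 0 lower without overlap, and DESeq2 called 2, both higher. Border-associated macrophage markers summed to 7297 and 9642 CPM versus 5627 to 10041 CPM, most of it from Stab1 and Siglec1. Of 9 tested, 1 was higher (F13a1) and 1 lower (Lyve1) without overlap. F13a1 was at 79.1 and 185 CPM versus 29.9, 47.0 and 23.9 CPM, with adjusted p = 0.0103 in DESeq2 and 0.369 in edgeR. The 10 neutrophil markers listed summed to 45.9 and 199 CPM versus 148 to 225 CPM, most of it from Csf3r, the G-CSF receptor, at 42.4 and 170.9 CPM versus 220.3, 211 and 144 CPM. Mmp8, a collagenase, was at 1.78 and 23.6 CPM versus 2.51, 3.04 and 3.72 CPM, and S100a8 at 1.37 and 4.43 CPM versus 1.63, 2.34 and 0.223 CPM. S100a9, Retnlg, Ltf, Ly6g and Mpo of the same list were at 0 in all libraries. The 10 T and NK cell markers listed summed to 0.535 and 0.270 CPM versus 0.190 to 1.34 CPM, with Cd3e, Cd3d and Cd3g at 0. The part of these markers in the receptor values was not tested.

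On chromosome 9, Ccr1 and Ccr2 stand in a run of chemokine receptor genes with Ccr9, Cxcr6, Xcr1, Ccr1l1 and Ccr3, from 123678439 on. Ccr3, the eotaxin receptor, was at 2.20 and 4.38 CPM versus 4.46, 3.04 and 25.9 CPM, and its groups overlapped. Ccr9, Cxcr6, Xcr1 and Ccr1l1 had 0 to 20 counts in any library. Ccr8, the next receptor gene beside Cx3cr1, had 0 counts in all libraries. Several of these genes are close paralogs, and the sources used here do not say how the authors' counting treated reads that match several genes.

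**Figure D3:**
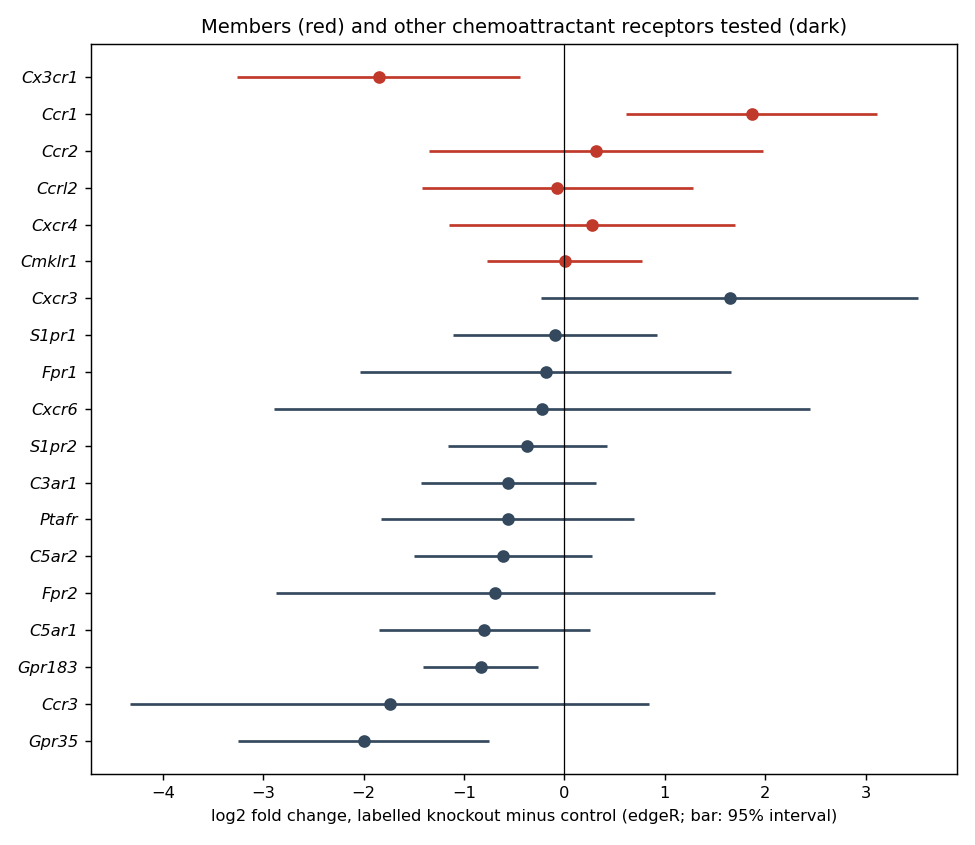
Log2 fold change, labelled knockout minus control, from edgeR with its 95% interval (bar) for the 6 members (red) and 13 of the 14 other chemoattractant receptors tested (dark). Cxcr3 is the dark point above 0, the others lie below it, and the intervals of Gpr183 and Gpr35 are the dark ones that do not reach 0.

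Of 34 other chemokine and chemoattractant receptors listed, 28 had a count in some library and 14 could be tested. edgeR called 0, against 0% of all genes, and DESeq2 called 1 lower, against 0.734% of the genes it adjusted. At an unadjusted p under 0.05 edgeR found 0 higher and 2 lower, against 3.99% and 2.69% of all genes. Of the 14 log2 fold changes 13 were negative, as were 6130 of all 12543. The median of the 14 was -0.56, beside 0.01 for all genes. That median was -0.02 without the labelled-knockout library 1. Gpr35, a receptor for kynurenic acid, was at 5.95 and 2.97 CPM versus 20.7, 22.1 and 10.6 CPM. Its log2 fold change was -2.00 (SE 0.507), with DESeq2 adjusted p = 0.0202. Gpr183, which follows oxysterol gradients, was at 15.4 and 14.97 CPM versus 27.8, 29.1 and 24.4 CPM. Its log2 fold change was -0.84 (SE 0.232), with DESeq2 adjusted p = 0.0986. Neither gene overlapped between groups. The same held, by a narrow margin, for C3ar1, the receptor of complement C3a, at 822 and 1045 CPM versus 1051, 1196 and 1877 CPM. Of the 14 tested, 0 were higher and 3 lower without overlap, where 9.85% and 10.4% of all genes were. In edgeR the adjusted p was 0.442 for Gpr35, 0.503 for Gpr183 and 0.880 for C3ar1.

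Among 16 listed ligands of the members, 14 could be tested, 4 with a positive and 10 with a negative log2 fold change. Over all 12543 genes 6413 were positive and 6130 negative. edgeR and DESeq2 called 0 of the ligands, against 0% and 1.95% over all genes. At an unadjusted p under 0.05 edgeR found 1 ligand higher and 2 lower, against 3.99% and 2.69% of all genes. The median of the ligands, -0.75, turned to 0.52 without control 3. Cx3cl1, the ligand of Cx3cr1, was at 0.416 and 2.22 CPM versus 0.754, 1.014 and 0.743 CPM, and Rarres2, the gene of chemerin, had 3 counts in control 2 and none elsewhere. Cxcl12, the ligand of Cxcr4, had 1 and 4 counts against 74, 66 and 0 counts, so control 3 overlapped the labelled-knockout libraries. Cxcl14, which is reported to bind Cxcr4, was at 90.4 and 98.4 CPM versus 231, 199 and 136 CPM. Its log2 fold change was -0.998 (SE 0.284; edgeR adjusted p = 0.517). Ccl6, a mouse ligand of Ccr1, was at 107 and 1225 CPM versus 127, 101 and 196 CPM. Its log2 fold change of 2.24 (SE 0.903) was -0.40 without the labelled-knockout library 2, so it rested on that library.

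Genes downstream of the receptors were spread around 0. In the list of 24 G protein and effector genes, 23 were tested with a median log2 fold change of 0.01. edgeR called 0, with 1 higher and 0 lower at an unadjusted p under 0.05, against 3.99% and 2.69% of all genes. DESeq2 called 1, Plcb2, against 1.95% of the genes it adjusted. Plcb2, a phospholipase C that G proteins activate, was at 31.3 and 59.4 CPM versus 2.83, 1.90 and 8.55 CPM. This was a log2 fold change of 3.37 (SE 0.673), with adjusted p = 0.000472 in DESeq2 and 0.340 in edgeR, and 2.84 without the labelled-knockout library 2. Gnai2, the main inhibitory G protein subunit of leukocytes, was at 685 and 932 CPM versus 914, 899.9 and 951 CPM. In the list of 14 kinases, arrestins and RGS proteins that quench receptor signals, the median was -0.14 and edgeR called 0. At an unadjusted p under 0.05 edgeR found 0 higher and 1 lower, and DESeq2 called 1, Grk3, beside the same shares of all genes. Grk3, a kinase that phosphorylates activated receptors, was at 2.91 and 1.78 CPM versus 11.9, 10.9 and 10.9 CPM (a log2 difference, by edgeR, of -2.26, SE 0.385), with adjusted p = 1.79e-05 in DESeq2 and 0.285 in edgeR. Plcb2 and Grk3 did not overlap between groups. Of the 23 G protein and effector genes 2 were higher and 4 lower without overlap. In the list of 14, 1 was higher and 3 were lower without overlap. Over all genes tested 9.85% were higher and 10.4% lower in this way.

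Of genes that process the ligands, 9 were tested, and edgeR and DESeq2 called 0, against 0% and 1.95% over all genes. At an unadjusted p under 0.05 edgeR also found 0, against 6.68% of all genes. The log2 fold change was positive for 7 of the 9, and for 6413 of all 12543 genes. Ctss, cathepsin S, which releases fractalkine from the membrane, was at 349 and 2065 CPM versus 1319, 745 and 2099.8 CPM. Mmp12, a macrophage elastase, was at 364 and 1537 CPM versus 514, 586 and 317 CPM. In both genes the labelled-knockout libraries lay far apart and the groups overlapped. Exons of Mmp12 overlap those of Mmp1b on the other strand.

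**Figure D4:**
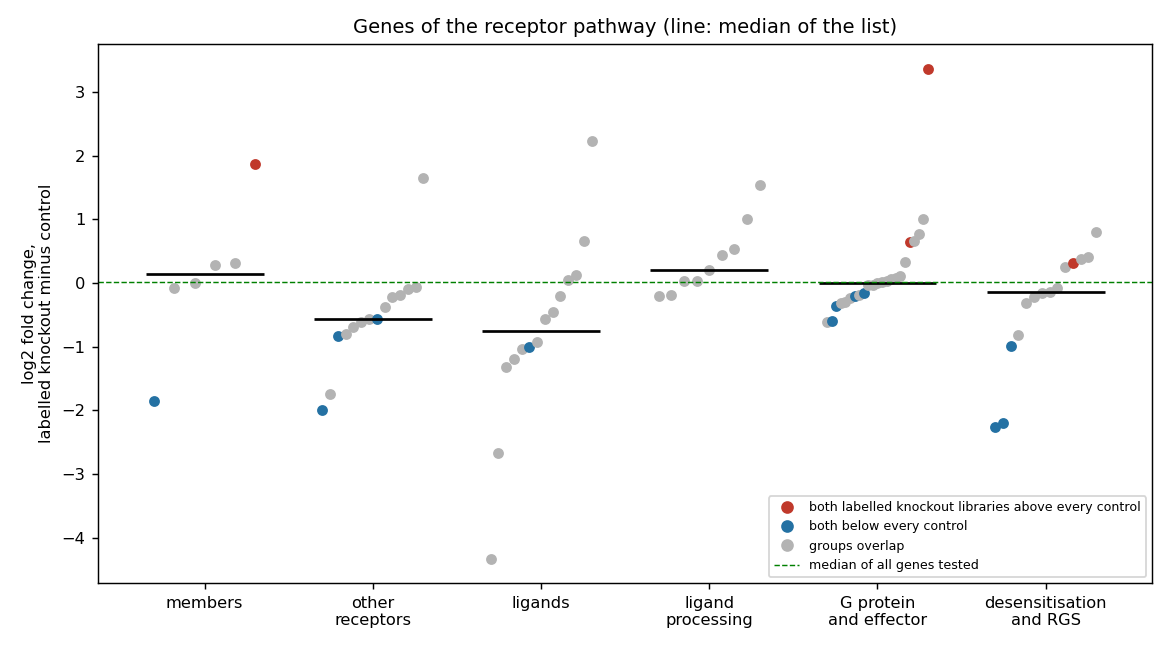
Log2 fold change, labelled knockout minus control, of each tested gene of the receptor pathway by list, with the list's median (line) and the median of all genes tested (green dashes). Red points lie above every control in both labelled-knockout libraries, blue points below, and grey points overlap; Plcb2 is the highest red point at 3.37 and Cx3cr1 the blue member at -1.85.

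The genes whose pattern over the 5 libraries came closest to that of Cx3cr1 were Phgdh, Asns, Ets1 and Plekhh2, with a root mean square difference of 0.242 to 0.296 in centred log2 CPM, out of 8662 genes with a mean of at least 10 CPM. Asns was at 50.1 and 20.1 CPM versus 127, 177 and 83.3 CPM, so like Cx3cr1 it was lowest in the labelled-knockout library 2 and highest in control 2. Closest to Ccr1 were Gpx3, Fcgr3, Bst1 and Pstpip1, at 0.243 to 0.302. Fcgr3, an activating Fc receptor, was at 289 and 836 CPM versus 192, 189.9 and 187 CPM. For the overlapping members the nearest gene was Gramd1a for Ccr2, Gnas for Ccrl2, Bbc3 for Cxcr4 and Zfp358 for Cmklr1, at 0.0231 to 0.110. With 5 libraries many genes share such an order, and nothing was tested.

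**Figure D5:**
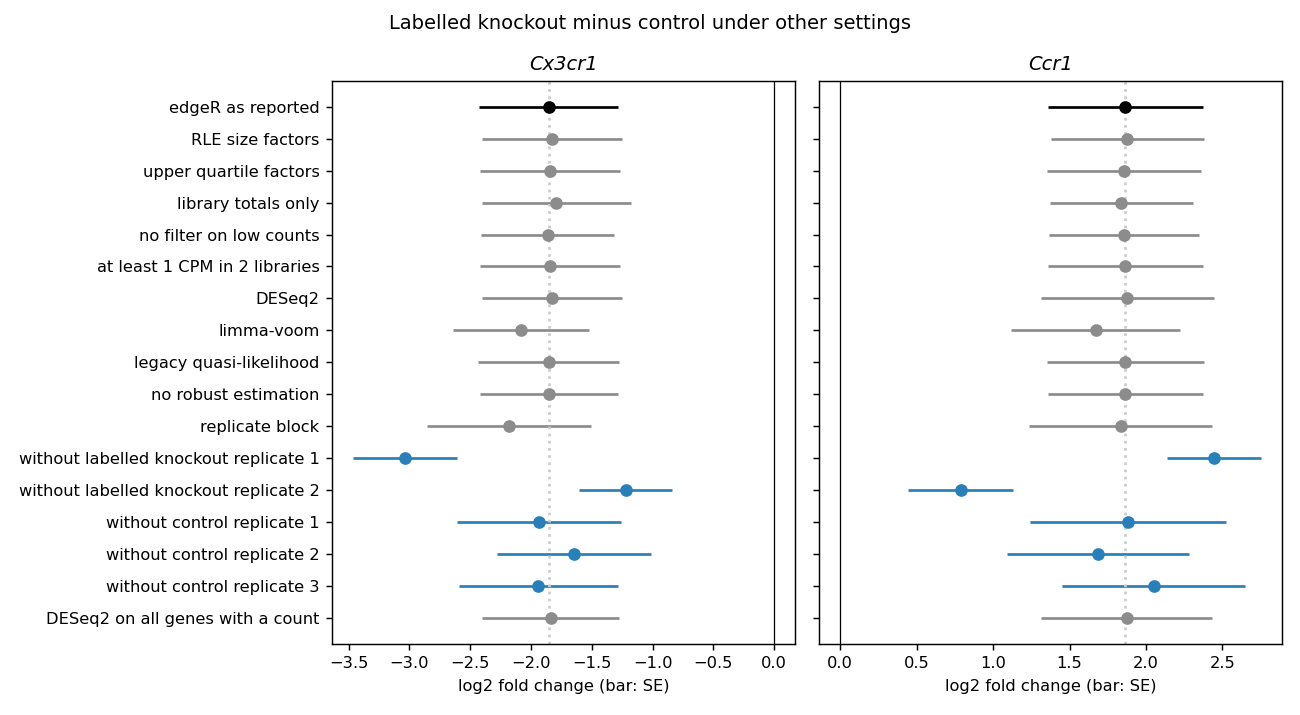
Log2 fold change, labelled knockout minus control, of Cx3cr1 (left) and Ccr1 (right) under the processing alternatives, with its standard error (bar); blue points are edgeR fits that leave out a library, and the DESeq2 fits that do so are not drawn. Cx3cr1 stays below 0 and Ccr1 above 0 at every point drawn, and the points drawn furthest from the reported values are those that leave out a labelled-knockout library, at -3.04 and -1.22 for Cx3cr1 and 2.45 and 0.79 for Ccr1.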

How the data were processed

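The authors deposited 1 table of read counts per gene symbol, whole numbers without normalization, for 5 libraries. Per the submitters' processing notes, FastQC, STAR and HTSeq were used with build mm10; the sources used here do not give versions, strand setting or annotation. Trizol RNA went into NEBNext Ultra libraries, per the labels' protocols. Counting intervals cover counting error only. Groups came from sample titles; the third control carries 2 numbers and its library number was used.

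Tests used edgeR 4.0.16 (R 4.3.3): filterByExpr, TMM, quasi-likelihood F test with robust estimation, two-sided, Benjamini-Hochberg adjustment over 12543 genes, threshold 0.05, 3 residual degrees of freedom. DESeq2 1.42.0 ran on the same genes, and limma 3.58.1 (voom) as a further alternative. Log2 CPM used a prior count of 2. GENCODE M21 (GRCm38) supplied coordinates and exon lengths for 99.7% of genes by symbol. Scripts were tested on simulated counts.

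Named genes were the members, Ythdf2, receptor genes beside Ccr1, Ccr2 and Ccrl2, and, of each pathway list, up to 4 genes at an unadjusted p under 0.05, otherwise the 2 with the highest mean, and the 4 genes nearest each member by pattern; others are illustrations chosen after their values were seen. Members and lists were chosen with earlier results of these data known. Marker lists without a value in the text (dendritic, B, astrocyte, neuron, endothelial and fibroblast cells) had 0 genes each called by edgeR, 0 or 1 by DESeq2, and 0 to 3 in each direction at an unadjusted p under 0.05 in edgeR. Of the other receptors, 1 gene is counted with its list and not reported here by itself.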

Additional observations from a re-analysis of the deposited data

How the results depend on the processing

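Cx3cr1 remained lower and Ccr1 higher in the labelled-knockout libraries under all 21 alternatives run, whose fold changes are given on the log2 scale. Leaving out a library gave -3.04 to -1.22 for Cx3cr1 and 0.79 to 2.45 for Ccr1 in edgeR. DESeq2 called 244 genes where edgeR called 0 (838 at an unadjusted p under 0.05), and 1 member, Ccr1, at 1.88. The DESeq2 fits on all genes with a count and without each library were chosen after seeing the data. The first called 232 genes and 1 member, Ccr1, at 1.87. Those without labelled-knockout library 1, library 2, control 1, control 2 and control 3 called 182, 464, 75, 90 and 308 genes, and 2, 0, 0, 0 and 1 members. Past the threshold were Cx3cr1 at -3.02 and Ccr1 at 2.47 without labelled-knockout library 1, and Ccr1 at 2.05 without control 3. A fit without a labelled-knockout library leaves 1 library in that group, which is assumed to vary like the controls.

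Signs of the other members turned. Cmklr1 was at -0.0029 with upper quartile factors, -0.0061 with library totals and -0.0074 without the filter. With a library left out, edgeR gave -0.31 to 0.23 for Cmklr1, -1.02 to 0.92 for Cxcr4, -1.31 to 0.55 for Ccrl2, -0.47 to 0.78 for Ccr2, -1.99 to 0.55 for Ctss, -0.40 to 3.09 for Ccl6 and -0.38 to 1.67 for Mmp12. DESeq2 turned the sign of Ccrl2 (0.58) and Ctss (0.57) without labelled-knockout library 1. It did so for Ccr2 (-0.46), Cxcr4 (-0.98), Cmklr1 (-0.28), Ccl6 (-0.37) and Mmp12 (-0.35) without library 2, for Ccrl2 (0.097) without control 1, and for Cmklr1 (-0.19) and Ctss (0.22) without control 3. The cause was not tested. Without division by exon length, Ccr2 for each 1000 of Cx3cr1 was 19.4 in labelled-knockout library 2. Cxcl12 fell under the filter without control 1 or 2.

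With the replicate number as a replicate block edgeR called 4 genes and 0 members, with Cx3cr1 at -2.18, Ccr1 at 1.84, Cxcr4 at -0.032 and Cmklr1 at -0.21. No label says that a number marks a shared animal or day, so the numbers were not taken to pair libraries. Deviations of same-numbered libraries from their group means correlated at 0.15 and -0.56. With 2 labelled-knockout libraries these deviations mirror each other, so such values cannot decide the pairing. Depth limits Ccr2, at 10 to 35 counts.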
